A study of Rattus norvegicus with 33 samples.

Results

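The miR-26 family of rat plasma was represented by rno-miR-26a-5p and rno-miR-26b-5p, 2 of the 462 mature miRNAs listed in the count tables. The family was chosen by read shares in the vehicle libraries, where miR-26a-5p was among the 10 most abundant miRNAs, at the sixth place by mean share. miR-26b-5p was included as its family member, at place 44. Just inside the 10 were let-7f-5p with 3.16% of reads and miR-122-5p with 2.15%, and just outside miR-25-3p with 1.49% and miR-30a-5p with 1.26%. Because vehicle levels chose miR-26a-5p, they are given as a description with no test, and its position relative to vehicle in the treated libraries is not independent of that choice.

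Small RNA had been sequenced from plasma of male Sprague-Dawley rats, obtained at 6 weeks of age, in 6 models of drug-induced liver injury with 5 rats per group. The hepatocellular models were a single oral dose of acetaminophen (APAP, 1500 mg/kg, after a fast of 12 h) or thioacetamide (TAA, 100 mg/kg), both in carboxymethylcellulose, with plasma taken at 3, 6, 12 and 24 h. The cholestasis models were a single oral dose of 4,4'-methylenedianiline (MDA, 250 mg/kg, in carboxymethylcellulose) or α-naphthylisothiocyanate (ANIT, 150 mg/kg, in corn oil), with plasma taken at 3, 6, 12, 24 and 48 h. The steatosis models were daily oral carbon tetrachloride (CCl4, 300 mg/kg, in corn oil), sampled on Days 1, 3 and 5, and daily oral dexamethasone (DEX, 15 mg/kg, in corn oil), sampled on Days 1, 2 and 3. Vehicle rats received the solvent alone, and CCl4 and DEX shared 1 vehicle library.

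The 33 labelled samples corresponded to 29 count columns, called libraries here, of which 5 were vehicle and 24 treated. No group had a second count column, and whether a library was 1 rat or several is not stated in the labels. The ANIT vehicle, 12, 24 and 48 h columns each stood for 2 labelled samples. Whether such a column is a sum, a mean or 1 of the samples is not stated, so its counting intervals may not hold. Totals ran from 14176 miRNA reads (MDA vehicle) to 383330 (TAA 24 h). Intervals are exact 95% intervals and cover counting error only, not differences between rats or PCR copies. The hepatocyte miRNAs, a list of 7 led by miR-122-5p, took 1.57% to 4.14% of reads in vehicle libraries and 6.33% to 71.3% in treated ones. A share of reads therefore falls for any miRNA that does not rise with them, and fewer copies of a miRNA cannot be told apart from more copies of others.

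miR-26 miRNAs are conserved vertebrate regulators that are processed from introns of genes for small C-terminal domain phosphatases. In human and mouse lymphoma cells MYC represses them and they target the histone methyltransferase gene EZH2, and in a mouse model of liver cancer restored miR-26a slowed tumour growth. A miRNA selects its targets mainly through its seed, bases 2 to 8 from the 5′ end, so members with a shared seed generally address much the same transcripts.

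Both mature RNAs, from RefSeq on GRCr8, are shown because the counts rest on telling them apart; the seed is in capitals.
rno-miR-26a-5p: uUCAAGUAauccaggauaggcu
rno-miR-26b-5p: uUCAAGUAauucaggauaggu
The seed UCAAGUA was the same in both, and no other mature rat miRNA in the RefSeq table carried it. Over the 21 compared bases they differed at 2 positions, C11U and C21U, counted from the 5′ end with the miR-26a-5p base first. The former is 22 and the latter 21 bases long. Reads that stop before the second difference can be told apart only by base 11. How the authors' counting assigned such reads, or reads with a mismatch, is not stated in the labels or tables. How well the counts split the reads between the members could therefore not be checked.

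The hairpins are shown, with both arms in capitals, because the reads came almost entirely from the first arm.
Mir26a: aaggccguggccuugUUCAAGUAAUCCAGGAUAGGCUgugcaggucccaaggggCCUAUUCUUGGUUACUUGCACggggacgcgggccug
Mir26b: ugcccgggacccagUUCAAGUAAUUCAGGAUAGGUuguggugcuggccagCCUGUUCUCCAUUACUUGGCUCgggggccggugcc
Mir26a lies on the plus strand at chr8:127633048-127633137, within the bounds of Ctdspl, and Mir26b on the plus strand at chr9:83425709-83425793, within the bounds of Ctdsp1. Both host genes encode small phosphatases of the RNA polymerase II C-terminal domain. Over all 29 libraries 47968 reads were counted for miR-26a-5p and 2 for miR-26a-3p, which 3 of the 6 tables list. miR-26b-5p had 3167 reads and miR-26b-3p 14, found in 7 libraries. Of those 14, 5 were in TAA 24 h, which also held the most miR-26b-5p reads, 633.

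In vehicle plasma miR-26a-5p was an abundant miRNA whose level varied widely between the 5 libraries. It made up 4.71% of reads in the APAP vehicle (95% interval 4.52% to 4.90%), 0.956% in the TAA vehicle (0.854% to 1.07%), 2.34% in the ANIT vehicle (2.20% to 2.47%), 4.44% in the MDA vehicle (4.11% to 4.796%) and 4.71% in the CCl4 and DEX vehicle (4.63% to 4.802%). The APAP, MDA and shared CCl4 and DEX vehicles overlapped in their intervals, ANIT was lower, and TAA was lowest. The mean was 3.43% ± 1.71 (SD, n = 5), a coefficient of variation of 49.7%. Without the TAA vehicle it was 4.05% ± 1.15 (SD, n = 4).

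miR-26b-5p was far less abundant, with the same libraries highest and lowest. It made up 0.238% of reads in the APAP vehicle (112 reads), 0.0484% in the TAA vehicle (16 reads), 0.159% in the ANIT vehicle (80 reads), 0.190% in the MDA vehicle (27 reads) and 0.259% in the CCl4 and DEX vehicle (585 reads). The mean was 0.179% ± 0.0829 (SD, n = 5), and the TAA vehicle was again the lowest, with an interval (0.0277% to 0.0786%) that did not reach those of the other vehicles.

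The spread between vehicle libraries was wide for both members when set beside other miRNAs. The highest vehicle share of miR-26a-5p was 4.93 times the lowest, and that of miR-26b-5p 5.36 times, against a median of 2.08 over the 68 miRNAs with at least 10 reads in each vehicle library. Of those 68, 6 were wider than miR-26a-5p and 4 wider than miR-26b-5p. With 1 TMM scaling over all libraries (TMM sets libraries to a common level by a trimmed mean of their ratios), the spans were 6.36 and 6.90 against a median of 2.19, with 2 and 1 miRNAs wider. Without the TAA vehicle the shares spanned 2.02 and 1.63. miR-26a-5p differed between vehicle libraries by at least 2-fold, with an interval that excluded 1, in 5 of 10 pairs, among them all 4 pairs with TAA. miR-26b-5p did so in 6 of 10 pairs, again with all 4 of the TAA pairs. These pairs were counted for the members only, so no share over all miRNAs stands beside them. They describe the vehicle values by which miR-26a-5p was chosen and are no test.

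**Figure D1:**
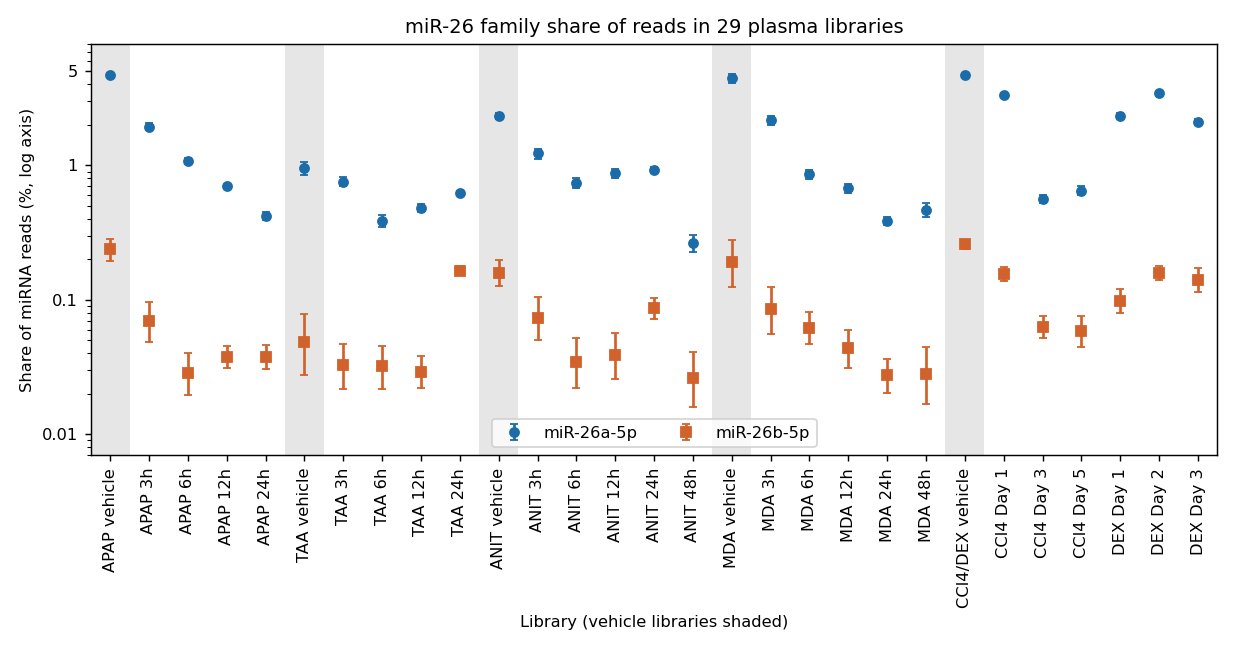
Share of miRNA reads (%, log axis) of miR-26a-5p (circles) and miR-26b-5p (squares) in each of the 29 libraries, with exact 95% counting intervals; vehicle libraries are shaded. The TAA vehicle is the lowest vehicle library for both members, and miR-26b-5p in TAA 24 h stands above the 3 earlier TAA libraries.

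By share of reads, treated libraries of 5 models lay below their own vehicle for both members. In APAP, miR-26a-5p went from 4.71% in vehicle to 1.95% at 3 h, 1.08% at 6 h, 0.697% at 12 h and 0.420% at 24 h. In MDA it went from 4.44% to 2.17%, 0.859%, 0.675%, 0.386% and 0.468% at 3, 6, 12, 24 and 48 h. These series had their lowest libraries at the late time points.

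In ANIT the miR-26a-5p share was 2.34% in vehicle, then 1.23%, 0.738%, 0.872%, 0.930% and 0.265% at 3, 6, 12, 24 and 48 h, and the 48 h library was the lowest of all 29. CCl4 gave 3.36%, 0.563% and 0.650% on Days 1, 3 and 5, and DEX 2.34%, 3.45% and 2.10% on Days 1, 2 and 3, both against 4.71% in their shared vehicle. In TAA the share was 0.956% in vehicle and 0.754%, 0.385%, 0.480% and 0.624% at 3, 6, 12 and 24 h, so all 4 treated libraries lay below a vehicle that was itself low.

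miR-26b-5p had the same highest and lowest libraries, from 0.259% in the CCl4 and DEX vehicle to 0.0264% in ANIT 48 h. In APAP it differed from miR-26a-5p in its course, with 0.0692%, 0.0285%, 0.0378% and 0.0379% at 3, 6, 12 and 24 h and thus its lowest library at 6 h. Its TAA series was 0.0484% in vehicle, 0.0325%, 0.0322% and 0.0291% at 3, 6 and 12 h, and 0.165% at 24 h. The TAA 24 h library was thus the fourth highest of the 29 by share and the highest by TMM-scaled level. Ordered by share, 22 of the 28 pairs of neighbouring libraries had overlapping intervals for miR-26a-5p and 28 of 28 for miR-26b-5p. Counting error thus left most neighbours in the order unseparated. Over the whole order the highest share was 17.8 times the lowest for miR-26a-5p and 9.83 times for miR-26b-5p.

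Relative to the own vehicle library, with TMM scaling within each model, both members were lower in 5 models and higher in TAA. A library was called higher or lower when the ratio was at least 2 or at most 0.5 and its interval excluded 1, a rule of size that carries no p-value. miR-26a-5p was called lower in 12 and higher in 2 of the 24 treated libraries, where over all miRNAs measured 20.5% of library values were called lower and 20.1% higher. miR-26b-5p was called lower in 13 and higher in 3. The shares over all miRNAs take in those with 20 reads in only 1 library of a model, which are harder to call. They were not matched to the members for number of reads. With total counts in place of TMM the calls were 18 lower and 0 higher for miR-26a-5p and 16 lower and 1 higher for miR-26b-5p. The shares over all miRNAs were computed with TMM only and are no background for the calls with total counts. Total counts lowered miRNAs in general, with a median log2 change of −1.33 over all miRNAs in the joint fit across models given below. Libraries of a model share their vehicle, so the numbers of calls are not numbers of independent observations.

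In MDA miR-26a-5p was lower at each later time up to 24 h. It was 0.507 times its vehicle at 3 h, 0.292 at 6 h, 0.250 at 12 h, 0.211 at 24 h (0.189 to 0.235 by counting error) and 0.208 at 48 h (0.181 to 0.240). The last 4 of these 5 libraries were called lower, beside a background of 29.5% of MDA values. miR-26b-5p was called lower in 5 of 5, between 0.294 and 0.493, from 18 to 55 reads against 27 in vehicle.

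In APAP miR-26a-5p was 0.471, 0.548, 0.780 and 0.257 times its vehicle at 3, 6, 12 and 24 h, and the 3 h and 24 h libraries were called lower (background 17.7%). miR-26b-5p was 0.331, 0.286, 0.838 and 0.459 times vehicle, called lower at 3, 6 and 24 h. Both members were thus nearest to vehicle at 12 h, when the hepatocyte miRNAs held 71.3% of the reads. With total counts in place of TMM the 12 h ratios were 0.148 and 0.159.

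In ANIT miR-26a-5p stayed between 0.324 (48 h) and 0.532 (24 h), with 3 of 5 libraries called lower beside a background of 22.4%. miR-26b-5p ran from 0.306 (6 h) to 0.726 (24 h), with 4 of 5 called lower. The ANIT 24 h library was not called for either member.

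In the steatosis models the first CCl4 library was near vehicle and later ones were lower. miR-26a-5p was 0.848, 0.296 and 0.380 times vehicle on Days 1, 3 and 5 of CCl4, with Days 3 and 5 called lower (background 14.9%), while miR-26b-5p stayed at 0.713, 0.604 and 0.627 and was not called. On DEX miR-26a-5p was 0.507, 0.946 and 0.488 on Days 1, 2 and 3, with Day 3 called lower (background 14.5%), and miR-26b-5p was 0.386, 0.792 and 0.596, with Day 1 called lower.

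In TAA both members were above their vehicle in 4 of 4 libraries with TMM scaling, whereas with total counts miR-26a-5p was below it in 4 of 4 and miR-26b-5p in 3 of 4. With TMM, miR-26a-5p was 1.65, 1.26, 2.34 and 2.30 times vehicle at 3, 6, 12 and 24 h, called higher at 12 and 24 h (background 24.0%). miR-26b-5p was 1.41, 2.07, 2.81 and 12.0 times vehicle, called higher at 6, 12 and 24 h. The 24 h value came from 16 reads in vehicle and 633 at 24 h (95% interval 7.35 to 21.2), and with total counts it was 3.41 times vehicle.

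The reference library decided many of these calls. With a call needed in the same direction against each of the 5 vehicle libraries, 0 of the 24 treated libraries were called for either member in either direction. Leaving out the TAA vehicle, a choice made after seeing the data, miR-26a-5p was called lower against each of the 4 others in 6 libraries and miR-26b-5p in 7, and neither was called higher in any. Neither of these rules was run over all miRNAs, so whether such numbers are usual for a miRNA is not known. The 7 for miR-26b-5p were APAP 3 and 6 h, TAA 3 h, ANIT 6, 12 and 48 h and MDA 48 h. The 6 for miR-26a-5p were APAP 24 h, TAA 6 h, ANIT 6, 12 and 48 h and MDA 48 h. TAA 6 h was above its own vehicle and below the 4 others. miR-26b-5p in TAA 24 h was called higher against 4 of the 5 vehicles, and over the 5 its ratio ran from 1.95 (CCl4 and DEX vehicle) to 13.5 (TAA vehicle).

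The direction in the models other than TAA did not turn under another scaling. Both members were below their own vehicle in 20 of 20 libraries with TMM within model, total counts, DESeq2 size factors, 1 TMM over all libraries, the authors' normalized values, and total counts after the hepatocyte miRNAs were left out. The ratios of miR-26a-5p ran from 0.208 to 0.946 with TMM within model and from 0.146 to 0.794 with the hepatocyte miRNAs left out. Of the 120 miRNAs listed in all tables with a mean of at least 10 reads, 10 were below vehicle in all 20 libraries with TMM within model, which is 8.33%, and 20 with total counts, which is 16.7%. The 10 also held let-7f-5p, miR-150-5p, miR-16-5p, miR-17-5p, miR-203a-3p, miR-652-3p, miR-93-5p and miR-98-5p. Of these 10, let-7f-5p and both miR-26 members were above vehicle in all 4 TAA libraries, with TMM within model, DESeq2 size factors and 1 TMM over all libraries alike. With total counts the number was 0. This pattern was looked for after the values of miR-26 had been seen.

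**Figure D2:**
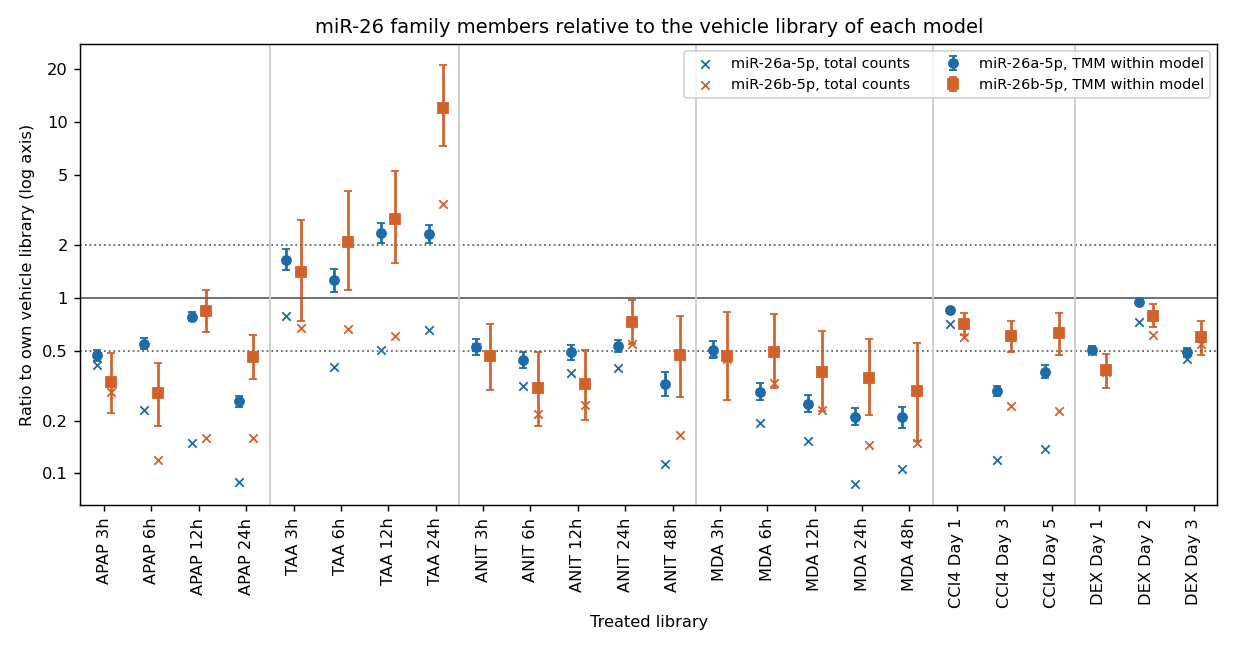
Ratio to the own vehicle library (log axis) for miR-26a-5p and miR-26b-5p in the 24 treated libraries, scaled by TMM within the model with 95% counting intervals (filled symbols) or by total counts (crosses). Dotted lines mark ratios of 0.5 and 2; the filled symbols lie above 1 in TAA and below 1 in the other 5 models, and the TAA crosses lie below 1 apart from miR-26b-5p at 24 h.

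The ratio of the members within a library needs no scaling. It was 19.8 miR-26a-5p reads per miR-26b-5p read in the APAP vehicle, 19.75 in the TAA vehicle, 14.7 in ANIT, 23.3 in MDA and 18.2 in the CCl4 and DEX vehicle, a mean of 19.2 ± 3.13 (SD, n = 5). Between vehicle libraries the interval for the quotient of these ratios held 1 in 9 of 10 pairs. An interval that holds 1 does not show that ratios are equal. The TAA vehicle had 16 miR-26b-5p reads, and the interval of its ratio was 12.0 to 35.0. By share, both members put the 5 vehicle libraries in the same order, with the TAA vehicle lowest. How well the counts split reads between the members could not be checked.

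In treated libraries the ratio ran from 3.78 to 38.0, with 11 of 24 inside the vehicle range, 9 below and 4 above. The lowest was TAA 24 h, where 2393 miR-26a-5p and 633 miR-26b-5p reads gave 3.78 (95% interval 3.46 to 4.13), 0.191 times the TAA vehicle (0.107 to 0.319). CCl4 Day 3 followed with 8.91, then ANIT 48 h with 10.05, ANIT 24 h with 10.8, CCl4 Day 5 with 11.03 and APAP 24 h with 11.1. TAA 24 h, CCl4 Day 3 and ANIT 24 h were lower than each of the 5 vehicle libraries by intervals that excluded 1. The highest was APAP 6 h with 38.0 (26.8 to 55.8), 1.92 times its vehicle (1.275 to 2.95). Against the own vehicle the interval lay below 1 in 7 libraries and above 1 in 4.

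Within APAP the ratio was 28.1, 38.0, 18.4 and 11.1 at 3, 6, 12 and 24 h, so it passed from above to below the vehicle value of 19.8. TAA gave 23.2, 12.0, 16.5 and 3.78. At 24 h or Day 1 the ratio was lower than vehicle in APAP, TAA, ANIT and MDA, by log2 changes of −0.84, −2.34, −0.45 and −0.72, and higher in CCl4 and DEX, by 0.25 and 0.39. The mean over the 6 models was −0.62 (SE 0.40), which an exact two-sided sign-flip permutation test did not separate from 0 (p = 0.156, where 6 models allow 0.0312 at the least). That test takes the 6 changes as independent, though those of CCl4 and DEX share a vehicle library. With CCl4 and DEX averaged the mean was −0.81 (SE 0.43, sign-flip permutation p = 0.125, smallest possible 0.0625). Without TAA the mean was −0.27 (exact permutation p = 0.3125, smallest possible 0.0625 with 5 models).

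**Figure D3:**
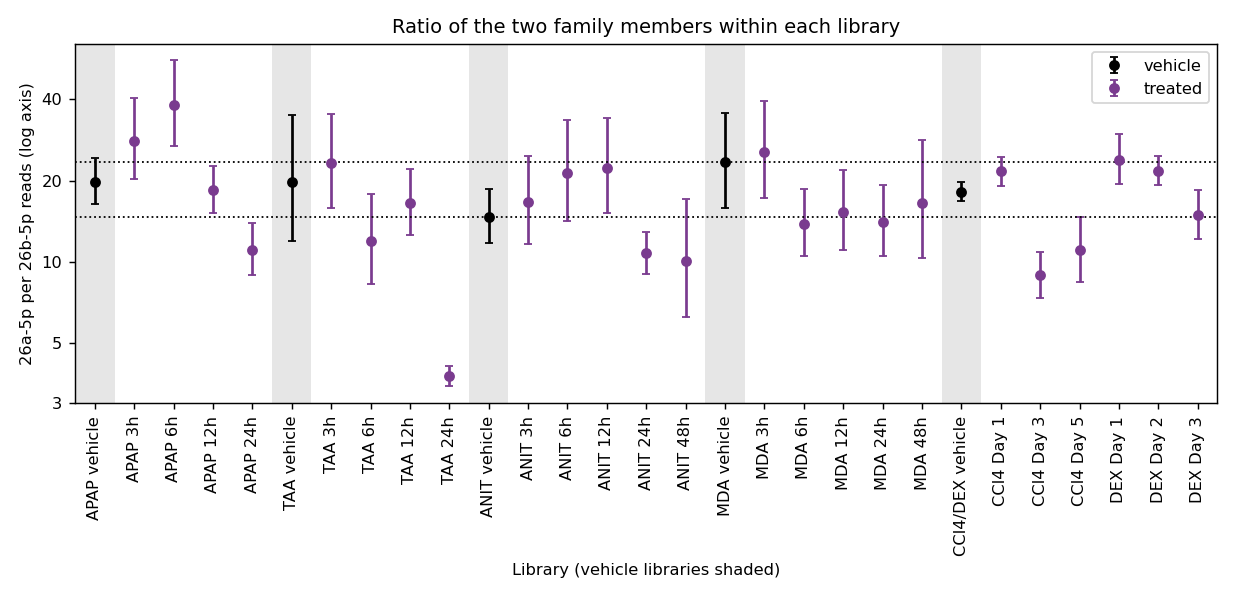
Reads of miR-26a-5p per read of miR-26b-5p in each library (log axis) with exact 95% intervals; black points are vehicle libraries and dotted lines their range of 14.7 to 23.3. TAA 24 h lies lowest at 3.78 and APAP 6 h highest at 38.0.

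The change across models was then tested with the models as replicates, in an edgeR quasi-likelihood fit with Benjamini-Hochberg adjustment over 134 miRNAs. Each model entered with its 24 h or Day 1 library beside its vehicle, 11 libraries in all, and the vehicle set was a block. Neither member passed the test. The log2 change of miR-26a-5p was −0.69 (SE 0.57, adjusted p = 0.402) and that of miR-26b-5p −0.17 (SE 0.69, adjusted p = 0.847), beside a median of −0.22 over the miRNAs tested. In this fit 2.99% of miRNAs were called higher and 1.49% lower, and 42 had an unadjusted p below 0.05. With total counts, which moved the median of all miRNAs to −1.33, miR-26a-5p was −1.86 with edgeR's adjusted p = 0.0475, so its call rests on the scaling.

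With 2 models per injury type, the members' estimates lay furthest apart in the hepatocellular models, though neither passed the edgeR test there. The 2 hepatocellular models went opposite ways at 24 h. With TMM within model, log2 ratios to vehicle were −1.96 in APAP and 1.20 in TAA for miR-26a-5p. For miR-26b-5p they were −1.12 and 3.55. In the joint fit miR-26a-5p was at −0.22 (SE 0.87, adjusted p = 0.822) and miR-26b-5p at 1.31 (SE 0.92, adjusted p = 0.192). In this comparison 26.9% of miRNAs were called higher and 32.1% lower. In cholestasis they were at −1.10 (SE 0.75, edgeR adjusted p = 0.357) and −0.50 (SE 0.71, adjusted p = 0.664), with a background of 8.21% higher and 2.99% lower. In steatosis they were at −0.58 (SE 0.88) and −0.88 (SE 0.82), both with an edgeR adjusted p of 0.965. There 0 miRNAs passed the adjusted threshold, 4 had an unadjusted p below 0.05, and 0.0% were called in either direction. The p-values by injury type rest mostly on a spread that edgeR shares over miRNAs, and little on the spread between 2 models.

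Differences between injury types were tested directly and were not called for either member. The background was 5.97% higher and 13.4% lower for hepatocellular minus cholestasis, 16.4% and 23.1% for hepatocellular minus steatosis, and 0.0% in both directions for cholestasis minus steatosis, where 6 miRNAs had an unadjusted p below 0.05. The widest was that of miR-26b-5p between hepatocellular and steatosis models, a log2 difference of 2.18 (SE 1.23, edgeR adjusted p = 0.141), and hepatocellular minus cholestasis was 1.81 (SE 1.17, adjusted p = 0.259). For miR-26a-5p the same differences were 0.36 (SE 1.24, edgeR adjusted p = 0.881) and 0.88 (SE 1.14, adjusted p = 0.586). Cholestasis minus steatosis was −0.52 (SE 1.17) for miR-26a-5p and 0.37 (SE 1.09) for miR-26b-5p, both with an edgeR adjusted p of 0.949. The widest of these differences, 4.54-fold on the linear scale, had an unadjusted p of 0.0769 in the edgeR fit and did not pass after adjustment.

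Earlier times were fitted over APAP, TAA, ANIT and MDA, with 8 libraries each. At 3 h miR-26a-5p was at −0.39 (SE 0.39, edgeR adjusted p = 0.640) and miR-26b-5p at −0.69 (SE 0.46, adjusted p = 0.444), where 3.03% of miRNAs were called higher and 3.03% lower. At 6 h both were at their lowest, −0.80 (SE 0.43, edgeR adjusted p = 0.220) and −0.85 (SE 0.48, adjusted p = 0.232), beside 11.5% called higher and 6.73% lower. At 12 h they were at −0.33 (SE 0.52, edgeR adjusted p = 0.651) and −0.25 (SE 0.53, adjusted p = 0.749), beside 17.3% and 9.62%. With total counts both were called lower at 6 h and 12 h, where the median of all miRNAs also moved, to −1.17 and −1.78.

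**Figure D4:**
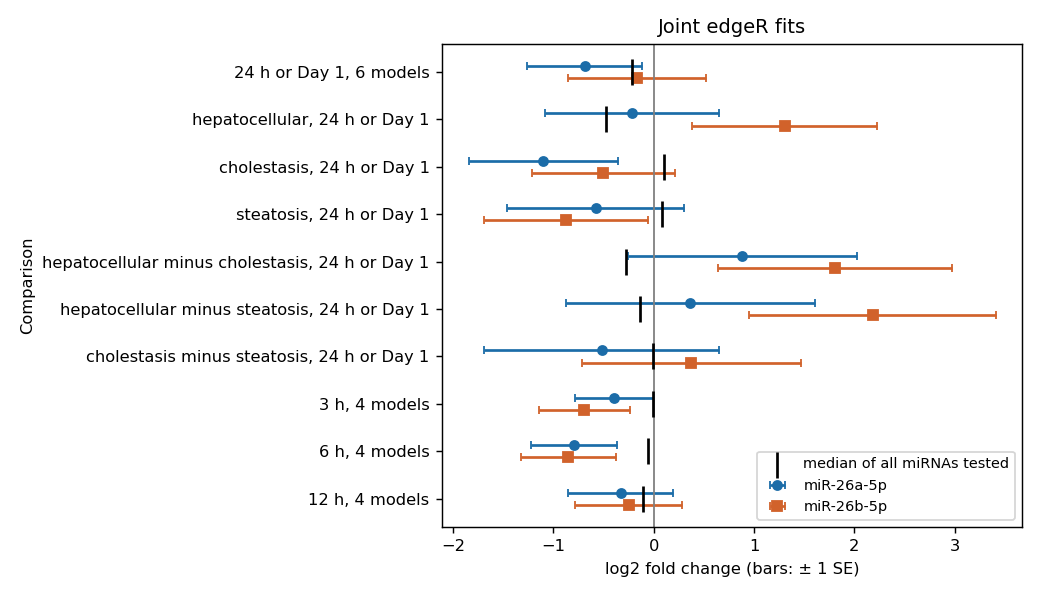
Log2 fold change with its SE for miR-26a-5p (circles) and miR-26b-5p (squares) in each joint edgeR fit, with the median of all miRNAs tested as a black tick. The estimates of miR-26a-5p across models (−0.69) and of miR-26b-5p in the hepatocellular models (1.31) were not called.

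Other miRNAs that MYC is known to repress are given from the same fits as a description, and whether MYC had a part was not tested. Of 22 listed, 17 were tested, and across models 0 rose and 1 fell, miR-16-5p (log2 −1.91, SE 0.50, edgeR adjusted p = 0.04996), with a median of 0.35 beside −0.22 for all miRNAs and the 2.99% higher and 1.49% lower given above. In the hepatocellular models 8 rose, 3 fell and 6 did not pass, with a median of 0.88 beside −0.47 for all miRNAs, of which 26.9% were called higher and 32.1% lower. miR-22-3p rose by 5.78 (SE 0.93, edgeR adjusted p = 4.44e-08) and miR-30b-5p by 4.16 (SE 0.82, adjusted p = 6.0e-06), while the lymphocyte miRNA miR-150-5p fell by 5.25 (SE 0.85, adjusted p = 5.28e-08) and let-7d-5p by 3.09 (SE 0.80, adjusted p = 0.000556). These 4 were picked from the list after their values were seen. Their p-values rest mostly on the spread shared over miRNAs, as in the other fits by injury type. miR-150-5p is also in the leukocyte list summed below, and miR-16-5p in the red cell list.

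The shares of blood cell and muscle miRNAs also differed between vehicle and treated libraries, and their part in the result was not tested. Red cell miRNAs, 6 of 7 listed in the tables, summed to 3.18% to 6.61% of reads in vehicle and 0.0843% to 6.80% in treated libraries. Platelet miRNAs, 3 of 5 listed, gave 1.52% to 2.09% and 0.0754% to 2.13%, and the 4 leukocyte miRNAs 0.437% to 0.732% and 0.00913% to 0.457%. The 3 muscle miRNAs gave 0.132% to 0.653% and 0.00416% to 1.39%. In the low TAA vehicle the red cell, platelet and leukocyte sums, 5.01%, 1.52% and 0.553%, were within 1.5-fold of the median vehicle, with miR-144-3p at 0 reads. The muscle sum was 0.653% there, the highest of the 5 vehicles, beside a vehicle median of 0.233%. The hepatocyte sum in the TAA vehicle, 4.14%, was also the highest (vehicle median 3.77%). The sum of the MYC-repressed list there, 9.28%, was the lowest (vehicle median 13.7%). In TAA 24 h, where miR-26b-5p was at its highest TMM-scaled level, the red cell sum was 0.0843% with miR-144-5p at 0, and the platelet and leukocyte sums were 0.0754% and 0.00913%.

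In the joint fit across models the hepatocyte list had 2 members higher and 0 lower of 3 tested, with a median of 3.89, and the red cell list 0 higher and 1 lower of 4 (median −1.83). That 1 was miR-16-5p, the same miRNA that fell in the list of MYC-repressed miRNAs. The platelet, leukocyte and muscle lists had 0 called of 3, 3 and 2, with medians of −0.92, −1.44 and −2.01. Over all 134 miRNAs 4 were higher and 2 lower, with a median of −0.22.

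The patterns most like those of the members over the 29 libraries were each other's. By Spearman's rho of TMM-scaled levels over 104 miRNAs compared, miR-26a-5p was nearest to miR-26b-5p (0.796), let-7f-5p (0.783), miR-30c-5p (0.655), let-7i-5p (0.617) and miR-103-3p (0.610). miR-26b-5p was nearest to miR-26a-5p (0.796), miR-21-5p (0.776), miR-27b-3p (0.673), miR-148b-3p (0.645) and miR-103-3p (0.645). These are descriptions over libraries that share vehicles, depth and scaling, and the near-identical sequences of the members could have added to their own likeness if reads were split between them. let-7f-5p, the second nearest to miR-26a-5p, was also abundant in vehicle plasma, at 3.16% ± 1.63 of reads (SD, n = 5).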

How the data were processed

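Read counts per mature miRNA and library were used as deposited, and the authors also deposited a normalized signal, made by dividing counts by DESeq size factors (DESeq 1.28.0, per the submitters' processing notes). Per the labels' protocols, RNA came from 200 µL of EDTA plasma and was made into libraries with an NEBNext small RNA kit with 15 PCR cycles. The counting tool and miRNA release are not named in the labels or tables. Multiplied back by its factor, the signal missed the deposited count by over 0.5 read in 17.2% of 4113 values. It therefore served as an alternative scaling and not as the main measure.

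miRNAs were measured where at least 1 library of the model held 20 reads. Ratios were scaled by TMM within the model (edgeR 4.0.16, R 4.3.3), with exact conditional binomial intervals at 95% (SciPy 1.17.1), and log2 ratios of the members used a pseudocount of 0.5 read. Joint fits took miRNAs that all 6 tables list and that reached 10 reads in 4 or more libraries, and called an adjusted p below 0.05. The SE is the absolute log2 change over the square root of F and is approximate. The vehicle column shared by CCl4 and DEX differed between their tables in 36 miRNAs by at most 4 reads, and the fits used the CCl4 table's values. ANIT vehicle, 12, 24 and 48 h had 2 labelled samples each but 1 column, so no column had a replicate. The p-values rest on the spread between models together with a spread that edgeR shares over miRNAs. In the fits by injury type the shared spread carries most of the weight.

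By rule, named miRNAs were the members and their opposite arms, the 5 nearest to each member by Spearman's rho, ranks 9 to 12 in vehicle, and MYC-repressed miRNAs that passed the test across models. Names outside this rule, 4 MYC-repressed miRNAs among them, were chosen after their values were seen. Lists of hepatocyte, red cell, platelet, leukocyte and muscle miRNAs were summed. The members and lists were chosen with earlier results of these data known. Alternatives were total counts, DESeq2 (1.42.0) size factors and Wald test, other filters, vehicle libraries and time points, and models left out in turn. Sequences were matched by name for both members and both hairpins in RefSeq's table.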

Additional observations from a re-analysis of the deposited data

Results flagged for a closer look

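Among the 6 log2 ratios to vehicle of miR-26b-5p at 24 h or Day 1, that of TAA 24 h (3.55) stood apart from the other 5. Its gap to the next was 0.791 of the whole range, against a critical value of 0.625 for 6 values. Dixon's rule flags about 1 in 20 groups by chance, and several groups of member values were screened, at both ends of each. It was not run on ratios scaled by total counts. With total counts the ratio of this library was 3.41 times vehicle, the vehicle held 16 reads, and the red cell, platelet and leukocyte sums were at 0.0843%, 0.0754% and 0.00913% of reads there.

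Every TAA library lay above its vehicle and every library of each of the other 5 models below, for both members, with TMM within model. The difference was not tested. The median log2 ratio of miR-26a-5p in APAP minus TAA was −1.94, and in TAA minus ANIT, MDA, CCl4 and DEX it was 1.99, 2.96, 2.36 and 1.94. For miR-26b-5p APAP minus TAA was −2.60, and TAA minus ANIT, MDA, CCl4 and DEX was 2.34, 2.65, 1.91 and 1.99. With total counts all 4 TAA libraries lay below their vehicle for miR-26a-5p and 3 of 4 for miR-26b-5p.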

How the results depend on the processing

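Of 193 alternative values for 27 results, 162 kept their direction and their side of the threshold (for counts, stayed within 1.5 times, and for levels, within 1 SD). With total counts miR-26a-5p was called lower across models (−1.86), in hepatocellular (−2.05) and cholestasis models (−2.42), at 6 h (−1.87) and at 12 h (−1.97), and miR-26b-5p at 6 h (−1.89) and 12 h (−1.90). Total counts also turned miR-26b-5p in hepatocellular models (−0.51) and in cholestasis minus steatosis (−0.77), and miR-26a-5p in hepatocellular minus steatosis (−1.33, or −0.63 without the liver-enriched miRNAs). Without the liver-enriched miRNAs and with total counts, both members were called lower at 6 h (−1.24 and −1.28). None of the turned values was past the threshold. The median over all miRNAs across models was −1.33 with total counts and −0.22 with TMM.

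Libraries in which miR-26a-5p was called higher went from 2 to 0 with total counts, with and without the liver-enriched miRNAs, against each of 5 or of 4 vehicle libraries, and with TAA left out of the count. For miR-26b-5p they went from 3 to 1 with total counts, with and without the liver-enriched miRNAs, and to 0 under the other 3. Lower calls of miR-26a-5p went from 12 to 18 with total counts and 17 with a ratio of 1.5. Lower calls went from 12 to 6 and from 13 to 7 against 4 vehicle libraries, to 0 against 5, and for miR-26b-5p to 8 with the authors' normalized values. Shares over all miRNAs were computed for the main setting only, so the calls under the other settings have no background of their own.

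Without the vehicle sets as a block ("no replicate block") miR-26b-5p across models was 0.26, on the other side of 0, and was not called. Replicate numbers within ANIT could not serve as a block, because its columns carry none. Leaving out 1 model at a time, miR-26b-5p across models ran from −0.77 (without TAA) to 0.095 (without APAP) and miR-26a-5p at 12 h from −0.89 (without TAA) to 0.034 (without MDA). miR-26a-5p across models ran from −1.15 (without TAA) to −0.32 (without APAP). The vehicle mean of miR-26a-5p ran from 3.11% to 4.05% of reads. The causes were not tested.

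TMM computed before the filter on low counts, an alternative chosen after seeing the data, called 2 miRNAs higher and 1 lower across models, against 4 and 2. Total counts called 2 and 30, among the latter miR-26a-5p, and the other scalings called neither member across models. The count of 16 miR-26b-5p reads in the TAA vehicle limits every TAA ratio of that member.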
